A study of Mus musculus with 8 samples.

Results

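The PGC-1 coactivators and the regulators of mitochondrial biogenesis that work with them were followed in single neurons of the mouse frontal cortex, of the chandelier type (ChC) and of the fast-spiking basket type that makes parvalbumin (Pv). The group consists of 8 genes chosen by name, Ppargc1a, Ppargc1b, Esrra, Esrrg, Nrf1, Gabpa, Tfam and Mfn2, of the 23335 gene names in the count table, and all 8 were present there. The study prepared messenger RNA of single labeled neurons in 8 library batches of 16 cells, of which batches 4 and 6 lost 1 cell each, and marked each molecule with a varietal tag, so that the counts are of molecules (UMI). ChC came from Nkx2.1-CreER; Ai14 mice, in which tamoxifen at embryonic day 17.5 turned on a red fluorescent protein, with batches 1 and 2 from animal 1 at postnatal day 31 and batches 3 and 4 from animal 2 at postnatal day 32. Pv cells came from Pv-ires-Cre; Ai14 mice, with batches 5 and 6 from animal 3 at postnatal day 29 and batches 7 and 8 from animal 4 at postnatal day 35. All 4 mice are labeled as female and WT and had no experimental treatment beyond the induction. The note on tamoxifen, which names the Nkx2.1-CreER line, stands on the labels of the Pv samples as well, and whether the Pv-ires-Cre mice were given it is not clear from them. Nkx2.1-CreER marks cells by the history of a progenitor gene and Pv-ires-Cre marks cells by activity of the parvalbumin gene itself. Each cell type had its own mouse line and its own flow cell, so effects of the type, of the line and of sequencing cannot be told apart. Within each flow cell the animals had separate lanes, animals 1 and 3 on lane 1 and animals 2 and 4 on lane 2, so animal, age and lane cannot be told apart either.

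PGC-1alpha and PGC-1beta are transcriptional coactivators that bind no DNA themselves and are brought to promoters by nuclear receptors such as the estrogen-related receptors and by the nuclear respiratory factors. These factors act on nuclear genes of the respiratory chain and on Tfam, whose protein enters mitochondria and is needed to transcribe, copy and package mitochondrial DNA. Fast-spiking interneurons have a high energy demand, and in cortex PGC-1alpha is concentrated in parvalbumin-expressing cells, where several neuronal genes depend on it.

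Summed over all rows of the table, ChC batches 1 to 4 held 527743, 657957, 2898413 and 1307666 UMI. Pv batches 5 to 8 held 456458, 501563, 370238 and 921212 UMI. The 63 ChC held a median of 39200 UMI per cell (range 1053 to 606191) and the 63 Pv cells a median of 27116 UMI (range 2325 to 108081). Levels are given as CPM, the UMI of a gene per 1000000 UMI of its batch with TMM scaling between batches, and since a molecule gives 1 tag whatever its length, no correction for gene length was made. A level of 3 UMI, taken as the upper limit for a count of 0 (one-sided, 95%), lay between 1.08 CPM (batch 3) and 7.30 CPM (batch 5). Intervals and limits of this kind cover counting error only.

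Certain libraries stood apart. In batch 6, labeled as female, 0 UMI of Xist, the transcript of the inactive X chromosome, were found in 15 cells, while the other 7 batches held between 48 and 2358 UMI of it. Batch 5, which the labels give to the same animal 3, held 129 UMI in 16 of 16 cells, so batches 5 and 6 differ in a transcript that marks female cells. The labels were kept, and each value of animal 3 below, the sums over animals included, rests on them. Without batch 6 edgeR called 0 members and 0 of 9682 genes, and the 7 tested members kept the signs of their log2 fold changes, Ppargc1a at -0.91, Ppargc1b at -1.05, Esrra at 1.34, Esrrg at 0.11, Nrf1 at -0.97, Tfam at -0.15 and Mfn2 at 1.21. Batch 7 had the lowest summed level of the GABAergic markers Gad1, Gad2, Slc32a1, Lhx6 and Nkx2-1, at 1712 CPM against 3575 to 4918 CPM in the other batches, and the highest summed level of 5 pyramidal markers, at 1137 CPM. Batch 3 alone held more UMI than the 4 Pv batches together (2249471 UMI). Where a mean level without thinning, or a thinned share, given below moved by over 1.5 times when 1 batch was left out, its value without that batch stands beside it. Mean levels of thinned cells were not followed in this way.

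Ppargc1a, which encodes PGC-1alpha, lies on the minus strand of chr5:51845488-51945160 (mm9), and 589 UMI of it were counted in 98 of 126 cells. Its level was 31.2, 127, 79.5 and 13.3 CPM in ChC batches 1 to 4 and 170, 89.4, 68.3 and 112 CPM in Pv batches 5 to 8. Every Pv batch lay above ChC batches 1 and 4, while batches 2 and 3 fell within the Pv range, so the groups overlapped. The mean level was 62.7 ± 51.1 CPM in ChC (SD, n = 4 batches) and 110 ± 44.04 CPM in Pv (SD, n = 4), and 40.9 ± 33.5 CPM in ChC without batch 2 (SD, n = 3). Summed over the batches of an animal, the level was 87.6 and 56.1 CPM for ChC animals 1 and 2 and 125 and 97.7 CPM for Pv animals 3 and 4. Such sums average over batches, so their narrower range follows from the summing. On the log2 scale ChC differed from Pv by -0.63 (standard error 0.96), with an adjusted p of 0.991 in the quasi-likelihood test of edgeR with Benjamini-Hochberg adjustment, 2 animals against 2. With a batch or animal left out it ranged from -1.30 to -0.19. The means thus differed by less than the SD of the ChC batches but by more than that of the Pv batches.

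Ppargc1b, which encodes PGC-1beta (chr18:61457790-61560085, minus strand), was scarcer, with 179 UMI in 60 cells. ChC batches held 2, 14, 47 and 31 UMI and Pv batches 4, 0, 30 and 51 UMI, which gave 4.16, 21.1, 16.9 and 24.3 CPM in ChC and 9.74, 0, 60.3 and 53.8 CPM in Pv. The Pv levels split by animal and thus by lane, with both batches of animal 4 above every ChC batch and both batches of animal 3 below ChC batches 2, 3 and 4. The count of 0 in batch 6 allows up to 6.39 CPM. By animal, the Pv level was 4.45 CPM in animal 3 and 56.5 CPM in animal 4, against 14.2 and 18.4 CPM in ChC animals 1 and 2. The log2 fold change of -0.91 (standard error 1.53, adjusted p = 0.991 by edgeR) rested on animal 4 and was 1.85 without it (adjusted p = 0.83 by edgeR).

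Esrra encodes the estrogen-related receptor ERRalpha, a main DNA-binding partner of PGC-1alpha, and lies on the minus strand of chr19:6985467-6996298. It was at 208, 174, 81.3 and 88.5 CPM in ChC batches and at 2.43, 12.8, 159 and 72.8 CPM in Pv batches. All 4 ChC batches held at least 100 UMI, whereas Pv batches 5 and 6, both of animal 3, held 1 and 6 UMI. Pv batch 7 lay within the ChC range, so the groups overlapped. The other Pv batches lay below every ChC batch, batch 8 only narrowly. Its exact Poisson 95% interval (56.6 to 92.1 CPM) overlapped that of ChC batch 3 (71.1 to 92.7 CPM). The mean level was 138 ± 62.8 CPM in ChC and 61.7 ± 71.7 CPM in Pv (SD, n = 4 each), with animal 3 at 7.79 CPM and animal 4 at 103 CPM. Without batch 7 the Pv mean was 27.6 ± 35.99 CPM (SD, n = 3). ChC over Pv, the log2 fold change was 1.27 (standard error 1.29, adjusted p = 0.988 by edgeR), and with animal 4 left out it was 4.09 (standard error 1.83, adjusted p = 0.326 by edgeR). It was 1.75 without batch 7, 0.54 without batch 8, 0.53 without animal 1 and 0.42 without animal 3.

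Esrrg, which encodes ERRgamma, a receptor of the same family found in tissues with a high oxidative demand, had the most UMI of the group (2444 summed over 2 transcript rows, 1958 in the larger row on the plus strand of chr1:189432885-190038763). It was at 91.6, 510, 409 and 154 CPM in ChC batches and at 224, 196, 271 and 431 CPM in Pv batches. The lowest and the highest of the 8 batches were both ChC batches of animal 1, and the 4 Pv batches lay between them. The means, 291 ± 200.4 CPM in ChC and 281 ± 105 CPM in Pv (SD, n = 4 each), differed by far less than either spread (log2 fold change 0.16, standard error 0.66, adjusted p = 0.999 by edgeR). The sign turned with the setting, to -0.15 with batches as samples in limma voom and to -0.50 without batch 2. By the larger row alone the level ran from 77.1 to 557 CPM in ChC and from 140.5 to 369.5 CPM in Pv.

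Nrf1, the nuclear respiratory factor that binds promoters of many respiratory genes, occupies 4 rows within chr6:29997988-30103458 (plus strand). The rows repeat the same tags, since the longest held 272 UMI, none of the others exceeded it in any cell, and 1 of them equaled it in 62 of the 79 cells with a UMI, so their sum of 753 counts molecules more than once. The summed level was 56.2, 276, 56.9 and 40.7 CPM in ChC batches and 329, 21.3, 121 and 135 CPM in Pv batches. Batch 2 stood above the other ChC batches, and batch 6 below the other Pv batches. By the longest row the levels ran from 18.9 to 103.9 CPM in ChC and from 7.29 to 119 CPM in Pv, with batches 2 and 5 again the highest. The log2 fold change was -0.32 (standard error 0.94, adjusted p = 0.999 by edgeR) for the sum and -0.61 (standard error 1.21, adjusted p = 0.989 by edgeR) for the longest row. It was 0.26 without batch 1, 0.63 without batch 5 and 0.34 without animal 2.

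Gabpa encodes the DNA-binding subunit of GABP, also called nuclear respiratory factor 2 (NRF-2), and lies on the plus strand of chr16:84835369-84864023. It was the scarcest member, with 44 UMI in 25 cells. ChC batches held 0, 8, 2 and 4 UMI and Pv batches 1, 0, 29 and 0 UMI. Batch 7 thus held 29 of the 30 Pv molecules, spread over 11 of its 16 cells with at most 7 in a cell, while batch 8 of the same animal held 0 with a larger total. The level was 58.3 CPM in batch 7, and the count of 0 allows up to 3.16 CPM in batch 8. Gabpa did not pass the filter on low counts and was not tested. The Pv mean was 15.2 ± 28.8 CPM (SD, n = 4) and 0.757 ± 1.31 CPM without batch 7 (SD, n = 3), and the ChC mean was 3.98 ± 5.56 CPM (SD, n = 4) and 1.26 ± 1.61 CPM without batch 2 (SD, n = 3). With each cell thinned to 5000 UMI, which left Gabpa in 2 of 58 ChC and 7 of 61 Pv cells, the means were 7.40 ± 8.55 CPM and 26.05 ± 52.1 CPM (SD, n = 4 each). All 7 of these Pv cells were of batch 7, and without it Gabpa was left in 0 of 46 Pv cells. In ChC the count was 1 of 44 without batch 2, and likewise without batch 4. In the fit without the filter on low counts the log2 fold change of Gabpa was -1.36 (standard error 1.99, adjusted p = 0.978 by edgeR). It turned to 2.76 without batch 7 (standard error 2.45, adjusted p = 0.878 by edgeR).

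Tfam, the target whose protein maintains mitochondrial DNA (chr10:70688225-70700792, minus strand), was at 6.25, 1.51, 69.5 and 18.8 CPM in ChC batches and at 17.04, 349, 22.1 and 52.7 CPM in Pv batches. Batch 6 held 164 of the 232 Pv molecules, in 15 of 15 cells, and batch 3 held 193 of the 221 ChC molecules. The other 3 Pv batches lay within the ChC range. The Pv mean was 110 ± 160.0 CPM (SD, n = 4), and 30.9 ± 18.8 CPM (SD, n = 3) without batch 6. The ChC mean was 24.01 ± 31.2 CPM (SD, n = 4), and 8.85 ± 8.89 CPM (SD, n = 3) without batch 3. It was 9.51 ± 19.02 CPM (SD, n = 4) with each cell thinned to 5000 UMI, which left Tfam in 3 of 58 ChC, all of batch 3, and in 0 of 42 ChC without that batch. Its log2 fold change was -2.07 (standard error 1.46, adjusted p = 0.935 by edgeR) and -0.15 (standard error 1.61) without batch 6, and -3.33 (standard error 1.49) without batch 3. Without animal 2, which includes batch 3, it was -5.01 (standard error 2.18, adjusted p = 0.414 by edgeR).

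Mfn2 encodes mitofusin 2, which joins outer mitochondrial membranes and is a known target of PGC-1alpha with ERRalpha. It lies on the minus strand of chr4:147247704-147278928. It was at 12.5, 125, 117 and 203 CPM in ChC batches and at 24.3, 12.8, 56.3 and 72.8 CPM in Pv batches. Batches 2, 3 and 4 lay above every Pv batch, and batch 1 was level with Pv batch 6, at 6 UMI each, so the groups overlapped. The mean level was 114 ± 78.2 CPM in ChC and 41.5 ± 27.8 CPM in Pv (SD, n = 4 each). Its log2 fold change was 1.34 (standard error 1.14, adjusted p = 0.976 by edgeR), and between 0.70 (without animal 3) and 2.59 (without animal 4) with a batch or animal left out.

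**Figure D1:**
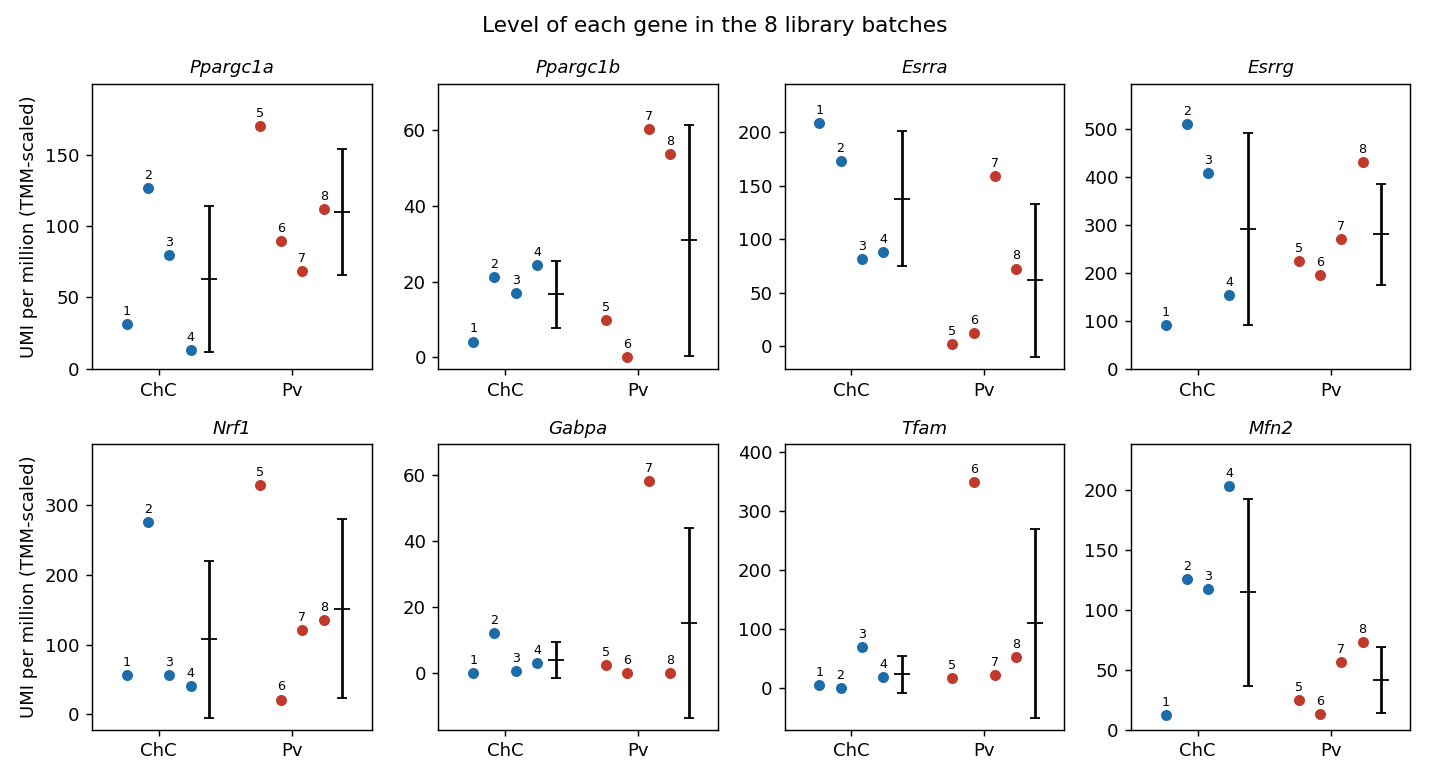
Level of each of the 8 genes (CPM of a batch, TMM-scaled, linear axes) in the 4 ChC batches (blue) and 4 Pv batches (red), with the batch number above each point and the mean ± SD beside each group. Batch 6 stands apart for Tfam (349 CPM) and batch 7 for Gabpa (58.3 CPM), and the groups overlap for every gene.

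With UMI summed per animal, edgeR called 0 of the 7 tested members at an adjusted p below 0.05 and 0 of 9829 genes (0.0%), of which 616 had an unadjusted p below 0.05, 0 of them members. DESeq2 called 151 of the 8876 genes to which it gave an adjusted p on the same sums (1.7%) and 0 members, and edgeR over batches called 5 of 6481 genes (0.0771%) and 0 members. Among the 9829 genes, all 4 ChC batches lay above all 4 Pv batches for 2.75% and all 4 Pv batches above all ChC batches for 1.61%, and 0 of the 7 members did either. The batches of an animal are not independent animals, and p-values measure only the spread between these samples. A p that misses the threshold does not show that the levels were alike, since the median standard error over all genes was 1.34 on the log2 scale.

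Batches of the same animal differed about as much as batches of different animals. Over the 9829 genes, the Spearman correlation of levels had a median of 0.484 between batches of an animal (4 pairs), 0.462 between animals of a type (8 pairs) and 0.442 between types (16 pairs), across genes that are not independent replicates. The median absolute log2 difference between the batches of an animal was 1.62, 1.21, 1.78 and 1.34 in animals 1 to 4. Of the 7 tested members, 5, 3, 4 and 0 exceeded this median in animals 1 to 4. On the same scale, log2(CPM + 1), Mfn2 differed by 3.23 between the batches of animal 1, Tfam by 4.28 and Nrf1 by 3.89 between those of animal 3, while in animal 4 only Gabpa, which is not among the 9829 genes, was above it at 5.89.

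Within a batch, by contrast, the median gene with at least 100 UMI varied little beyond counting error across cells. For the largest row of each gene, a chi-square statistic compared its UMI in the cells with shares set by their totals and was divided by its degrees of freedom, so that counting error alone gives 1. Over genes with at least 100 UMI its median lay between 0.991 (batch 3) and 1.25 (batch 7). By their largest row Ppargc1b, Nrf1 and Gabpa reached 100 UMI in no batch, so nothing is said of them here. Tfam had 1.37 in batch 6 and 0.904 in batch 3, Esrrg had 1.05 in batch 3, and Mfn2 had 0.546 in batch 3 and 1.18 in batch 4. Among members with as many UMI both the highest and the lowest value were those of Ppargc1a, 2.88 in batch 8 and 0.464 in batch 3, the only batches where it had enough UMI. In batch 8, 14 of 16 cells had a Ppargc1a UMI and the highest cell had 16.

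The share of cells with a UMI followed the batches as well. Esrra was found in 1 of 16 cells of batch 5 and 5 of 15 cells of batch 6, and in 15 and 16 of 16 cells of batches 7 and 8. Tfam was found in 1 of 16 cells of batch 2 and in all 15 cells of batch 6. Over all cells of a type, Ppargc1a was found in 66.7% of ChC (exact binomial 95% interval 53.7% to 78.1%) and 88.9% of Pv cells (78.4% to 95.4%). With each cell thinned to 5000 UMI, which left out 5 ChC and 2 Pv cells, these shares were 20.7% (11.2% to 33.4%) and 49.2% (36.1% to 62.3%). Batch 2 held 8 of the 12 ChC counted there, and without it the ChC share was 9.09% (2.53% to 21.7%). Esrra and Mfn2 had the opposite order at this depth, with 44.8% of ChC and 26.2% of Pv cells for Esrra and 36.2% and 18.03% for Mfn2. Batch 7 held 11 of the 16 Pv cells with Esrra, and without it the Pv share was 10.9% (3.63% to 23.6%). Esrrg was found in 70.7% of ChC and 68.9% of Pv cells at 5000 UMI, the highest shares of the group and nearly equal. The unthinned shares were 90.5% and 58.7% for Esrra, 69.8% and 63.5% for Mfn2, and 88.9% and 96.8% for Esrrg, in ChC and Pv. The orders of Ppargc1a, Esrra and Mfn2 were those of their CPM, and the intervals treat cells as independent although cells of a batch shared their library.

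**Figure D2:**
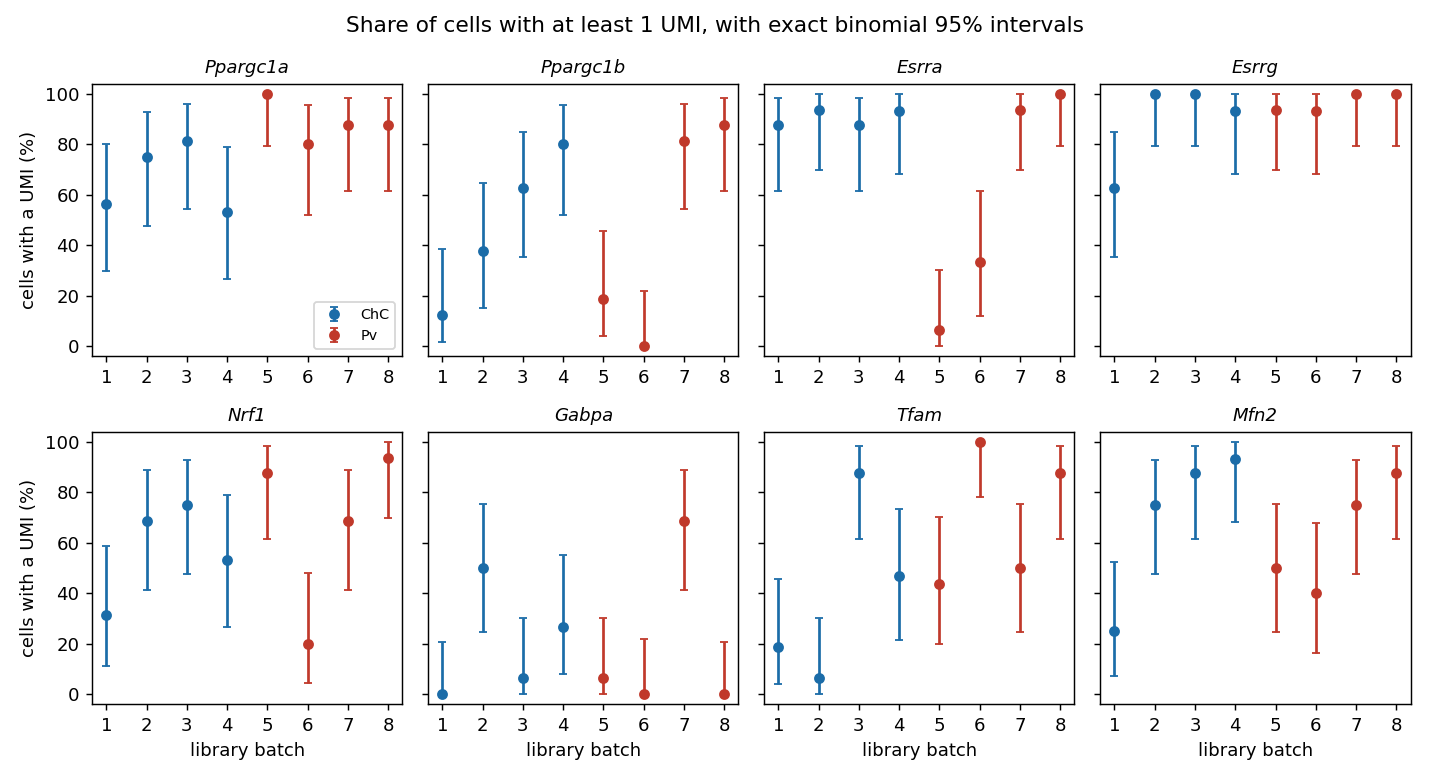
Percent of the 15 or 16 cells of each library batch with at least 1 UMI of each gene, with exact binomial 95% intervals, ChC batches in blue and Pv batches in red. Esrra is found in 6.25% of the cells of batch 5 and 100% of those of batch 8, both Pv.

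Members were compared across the cells of each batch by the Spearman correlation of CPM, averaged over the 8 batches, each with 15 or 16 cells that share a library and differ in depth. Among the 6 members with a UMI in at least 50% of all cells, the 15 pairs had means between -0.131 (Esrra and Tfam) and 0.285 (Ppargc1a and Esrrg), and 13 of the 15 were smaller than their SD over batches. Ppargc1a and Esrrg had a positive value in 8 of 8 batches (0.285 ± 0.204, SD) and Ppargc1a and Mfn2 in 7 of 8 (0.195 ± 0.181, SD). In cells of at least 10000 UMI these means were 0.243 and 0.0399. On UMI without division by the cell total, the same pairs had means of 0.714 and 0.58, and the differing depth of the cells enters those values directly. In counts this sparse, weak correlations are given as a description only.

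By the same measure, the genes most like Ppargc1a among 1467 genes found in 50% or more of the cells of each batch were Dcc (0.367), D18Ertd653e (0.36) and Actg1 (0.318). For Esrra they were Cox5b (0.337), Pcp4l1 and Abat, and for Esrrg they were Ranbp10 (0.314), Atp6v1b2 and Gabarapl1. For Nrf1 they were Snx27 (0.359), Phf14 and Nr2c2, for Tfam Grin1 (0.336), Actb and 2700081O15Rik, and for Mfn2 Heatr7a (0.381), Pcp4l1 and Trim30a. These are the highest of 1467 or 1468 values each, and the median over all such genes was between 0.0196 and 0.0513. For the 25 genes of the respiratory chain and citrate cycle described below, the median correlation was 0.0237 with Ppargc1a, 0.0303 with Esrra, 0.0534 with Esrrg, -0.0517 with Nrf1, 0.0741 with Tfam and 0.0138 with Mfn2.

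Of 11 genes whose products modify or work with PGC-1 proteins, 9 were tested and 0 were called by edgeR, with 6 log2 fold changes above 0 and 3 below and a median of 0.20, against 5061 above 0 and 4768 below and a median of 0.04 over all 9829 genes. The median of the list turned to -0.13 without batch 1 (3 above, 5 below) and was 2.07 with thinned cells, where 4 genes could be fitted. Without animal 2 it was -0.14 beside a median of -0.30 over all genes, so above that of all genes. Without animal 4 it was 0.06 beside 0.58, and without batch 1 it was -0.13 beside 0.03, so below that of all genes. With a batch or animal left out the median over all genes ranged from -0.30 (without animal 2) to 0.58 (without animal 4), and these shifts enter every value without an animal given here. Those with the most UMI were the corepressor Ncor1, at 316 ± 184 CPM in ChC and 286 ± 131 CPM in Pv, and the Mediator subunit Med1, at 142 ± 45.96 CPM and 126 ± 106 CPM (SD, n = 4 each). DESeq2 called 2 of these 9 genes, against 1.7% of all genes, Sirt1 and Yy1, which are named here after their values were seen. Sirt1, a deacetylase that acts on PGC-1alpha, was at 221 and 230 CPM in batches 1 and 3, at 1.57 CPM in batch 4 and 4.22 CPM in batch 8, and at 0 UMI in the other 4 batches. Yy1, a DNA-binding partner of PGC-1alpha, was at 87.5, 62.3 and 28.2 CPM in batches 2, 3 and 4 and at 0 UMI in batch 1 and in all Pv batches. Either gene was thus missing from 1 or more ChC batches too.

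Of 7 further nuclear receptors, 6 were tested and 0 were called by edgeR, 4 above 0 and 2 below (median 0.23). This median was -1.08 without animal 1, -0.52 in limma voom, -0.16 with thinned cells and 1.05 without animal 2, so its sign turned with the setting. Thrb was at 399 ± 395 CPM in ChC (229 ± 241 CPM without batch 1, SD, n = 3) and 309 ± 136 CPM in Pv, and Esrrb, the third estrogen-related receptor, was at 102 ± 60.5 CPM and 119 ± 85.0 CPM (SD, n = 4 each). Gabpb1 and Gabpb2, which encode the subunits that join Gabpa to form GABP, both had a log2 fold change above 0 (median 1.17, and 0.54 to 2.54 with a batch or animal left out), and 0 of 2 were called by edgeR. Gabpb1 was at 25.2 ± 17.4 CPM in ChC and 9.35 ± 10.4 CPM in Pv (4.17 ± 4.003 CPM without batch 7, SD, n = 3), and Gabpb2 at 31.5 ± 10.1 CPM and 21.6 ± 13.04 CPM (SD, n = 4 each). Gabpb2 was found in all 8 batches, unlike Gabpa.

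Genes downstream of these regulators lay mostly below 0, where 4768 of all 9829 genes lay (median of all genes 0.04). Of 25 genes of the respiratory chain and citrate cycle, 23 had a negative log2 fold change, that is a higher level in Pv cells, and only Cycs and Atp5d a positive one. These genes were counted in the same libraries, so their signs are not independent. The median was -0.69, and 0 of 25 were called by edgeR, by DESeq2 or under any other setting. The most abundant were subunits of ATP synthase. Atp5a1 was at 1114, 1064, 1411 and 750 CPM in ChC batches and at 2389, 2035, 544 and 1918 CPM in Pv batches, and Atp5b was at 737, 709, 933 and 1030 CPM and at 1259, 2092, 502 and 1295 CPM. For both genes, 3 Pv batches lay above every ChC batch and batch 7 lay below every one. The log2 fold change was -0.69 (standard error 0.45, adjusted p = 0.918 by edgeR) for Atp5a1 and -0.71 (standard error 0.49, adjusted p = 0.934 by edgeR) for Atp5b. With each batch or animal left out in turn, the median of the 25 lay between -1.05 (without animal 2, beside -0.30 over all genes) and -0.35 (without batch 8, beside 0.03), and it was farthest below that of all genes without animal 4, at -0.88 beside 0.58, and with DESeq2 or without TMM scaling it was -0.75 and -0.72. Without batch 7, which had the lowest GABAergic marker levels, it was -0.82.

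Of 10 genes listed for transcription and replication of mitochondrial DNA, 9 were in the table and 4 passed the filter, all 4 with a negative log2 fold change (median -1.45) and 0 called by edgeR. Lonp1, on the list although it is a protease of the mitochondrial matrix, had the most UMI, at 83.6 ± 118 CPM in ChC and 77.2 ± 91.5 CPM in Pv (SD, n = 4 each). Its log2 fold change was -0.58 with UMI summed per animal, although its mean over batches was higher in ChC. Without batch 4 its ChC mean was 25.7 ± 26.8 CPM, and without batch 8 its Pv mean was 32.9 ± 29.1 CPM (SD, n = 3 each). Peo1, which encodes the Twinkle helicase, was at 266 CPM in batch 6 and at most 8.04 CPM in the other batches, and was not tested. Batch 6 was also the batch with the highest Tfam. Ssbp1, a single-strand binding protein of mitochondrial DNA named here because DESeq2 called it as the only one of the 4 (1.7% of all genes), had 0 UMI in all ChC batches and in Pv batches 5 and 7, and was at 115 and 58 CPM in batches 6 and 8. Without the filter all 9 genes could be fitted, 2 above 0 and 7 below, with a median of -0.85. The median of the tested genes was -0.94 without batch 6, -2.07 without batch 7 and -3.12 without animal 2. Without animal 4 it was -0.63, with 3 of 6 genes above 0 and 3 below. With batches as samples, and with cells thinned to 5000 UMI, only Lonp1 could be fitted, at 0.10 and 0.33 in edgeR and at -0.05 over batches in limma voom.

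Besides Mfn2, 6 genes of mitochondrial fusion and fission were tested, with 1 log2 fold change above 0 and 5 below (median -0.60) and 0 called by edgeR. With a batch or animal left out the median lay between -1.08 (without animal 1) and -0.14 (without animal 3, with 3 above and 3 below). Mff, a receptor of the fission machinery, was at 289 ± 134 CPM in ChC and 359 ± 274 CPM in Pv, and Fis1 at 59.3 ± 38.3 CPM and 132.5 ± 149 CPM (SD, n = 4 each), the latter 66.3 ± 79.8 CPM without batch 5 (SD, n = 3). Mfn1, the paralog of Mfn2, was at 70.1 ± 47.7 CPM and 52.8 ± 40.2 CPM and was the gene above 0. The positive value of Mfn2 thus stood beside mostly negative ones, none of them past the threshold.

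Of all lists examined, only that of genes known to depend on Ppargc1a in parvalbumin interneurons held any gene whose groups did not overlap. All 4 genes of that list, Pvalb, Syt2, Cplx1 and Nefh, had a negative log2 fold change (median -2.73, and -3.27 to -1.95 with a batch or animal left out). With the filter on low counts, edgeR over all 4 animals called 0 of them. Pvalb was at 137, 165, 95.7 and 76.0 CPM in ChC batches and at 1570, 700.3, 426 and 1023 CPM in Pv batches. Nefh, which encodes the heavy neurofilament protein, was at 4.16, 0, 0 and 0 CPM in ChC batches and at 53.6, 63.9, 119 and 202 CPM in Pv batches. For these 2 genes every Pv batch lay above every ChC batch, as was the case for 1.61% of all genes. Nefh was found in 2 of 63 ChC and 48 of 63 Pv cells, and Pvalb in 52 ChC and all 63 Pv cells.

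The log2 fold change of Pvalb was -2.99 (standard error 0.63, adjusted p = 0.598 by edgeR over animals), and the adjusted p was 0.0249 with DESeq2, 0.0133 in edgeR without the filter, 0.0388 in limma voom over batches and 0.0324 in edgeR over animals without animal 4, within a range of 0.0133 to 0.889 over all settings. Nefh had adjusted p-values of 0.598 by edgeR over animals, 0.000715 by DESeq2 and 0.0301 by edgeR without the filter, within a range of 0.000715 to 0.935. Pv cells were picked by a marker driven from the Pvalb locus, so that the level of Pvalb is partly what defined them. Cplx1, which encodes complexin 1 of the release machinery, was at 1514 ± 533 CPM in ChC and 2311 ± 876 CPM in Pv (SD, n = 4 each), and its groups overlapped. Syt2, a calcium sensor of fast release, was at 4.16, 10.6, 0.72 and 10.97 CPM in ChC and at 41.4, 61.7, 8.04 and 15.8 CPM in Pv, with only batch 7 among the ChC batches. Nefh and Syt2 are named here after their values were seen. Across cells of a batch, the mean Spearman correlation of Ppargc1a was 0.0818 ± 0.241 with Pvalb, 0.0664 ± 0.22 with Syt2 and 0.204 ± 0.224 with Cplx1 (SD, 8 batches), and -0.0826 ± 0.175 with Nefh (SD, the 5 batches with a Nefh UMI).

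**Figure D3:**
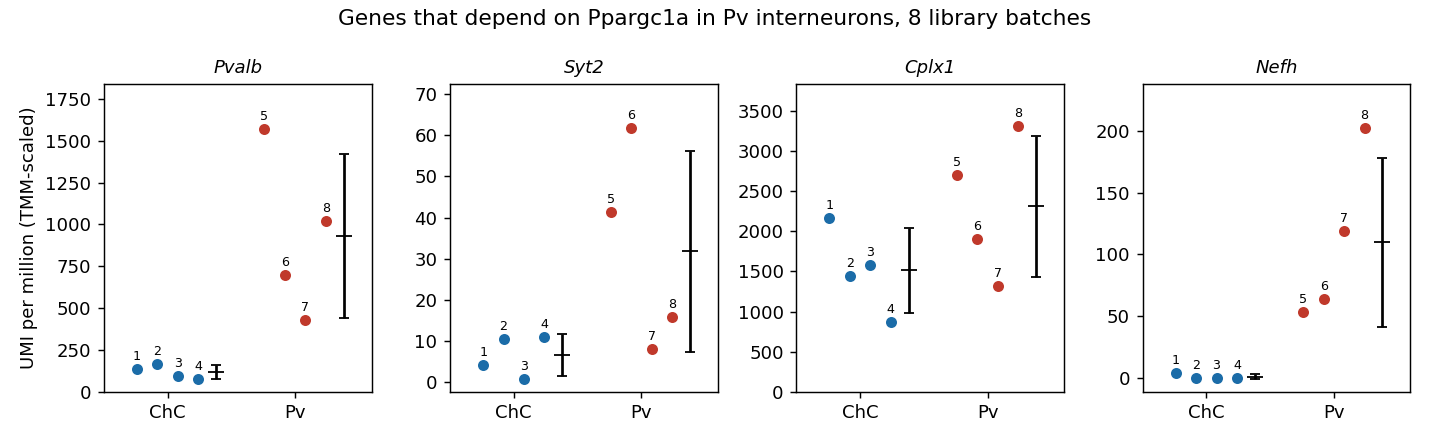
Level of Pvalb, Syt2, Cplx1 and Nefh (CPM of a batch, TMM-scaled, linear axes) in the 4 ChC batches (blue) and 4 Pv batches (red), with the batch number above each point and the mean ± SD beside each group. Every Pv batch lies above every ChC batch for Pvalb and Nefh.

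Markers of other cells were present unevenly. Of the GABAergic markers all 5 were found in all 8 batches, Slc32a1 the most abundant, with 3 log2 fold changes above 0 and 2 below (median 0.58, and 0.13 to 1.06 with a batch or animal left out) and 0 called by edgeR. The 5 pyramidal markers summed to 43.7, 445, 61.9 and 839 CPM in ChC and 516, 977, 1137 and 153 CPM in Pv batches. Camk2a held 2638 of their 2940 UMI and 888 CPM of the sum in batch 7, and Neurod6 and Tbr1 were at 0 UMI. Slc17a7 reached 221 CPM in batch 7, the batch that held 29 of the 44 Gabpa UMI. The astrocyte markers summed to between 6.39 and 273 CPM (most abundant Slc1a3, Gfap at 0), the oligodendrocyte markers to between 2.13 and 202 CPM (Mbp, with Mag and Mobp at 0) and the endothelial markers to between 13.7 and 56.3 CPM (Tek, with Cldn5 at 0). The microglial markers reached 52.5 CPM in batch 4 and 10.04 CPM in batch 7, with C1qa at 0 and at most 1.51 CPM in the other batches. Of the 5 genes of each list, 2 pyramidal, 2 astrocyte, 1 oligodendrocyte and 1 endothelial gene could be tested, with median log2 fold changes of -1.08, 1.38, 0.23 and 0.06 and 0 called by edgeR. Each of these 4 values turned sign when a batch or animal was left out, the pyramidal one ranging from -2.10 to 0.62 (0.08 without batch 7), the astrocyte one from -0.22 to 4.00, the oligodendrocyte one from -4.43 to 5.71 and the endothelial one from -1.05 to 0.64. The shifts of all genes enter these ranges, with 0.58 without animal 4 beside the highest pyramidal value and -0.30 without animal 2 beside the lowest astrocyte value. Their part in the levels of the PGC-1 group was not tested.

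Some members share their place in the genome with another gene. In the GENCODE M1 annotation of the same assembly, the last 73 bases of Esrra overlap Trmt112 and the first 502 bases of Gabpa overlap Atp5j, each on the opposite strand, and Mfn2, Nrf1 and Ppargc1b overlap a gene on the opposite strand by 321, 327 and 113 bases. Whether counting used the strand is not given in the sources used here, so tags from these stretches cannot be told apart. The levels of Esrra, Gabpa, Mfn2, Nrf1 and Ppargc1b carry that uncertainty.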

How the data were processed

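Single labeled neurons were collected by hand and their messenger RNA was amplified with poly(A) priming. The authors aligned reads to mm9 with Bowtie 0.12.7 (version from the submitters' processing notes), counted each tag once per gene, and deposited these UMI counts for 27207 transcript rows and 128 cells without normalization. Of these, 2 cells had no count and were left out, and 126 cells were used, and no cells had identical counts. Rows were summed per gene name, although the 2641 gene names with several rows can hold the same tags more than once, so the row with the most UMI was an alternative.

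UMI were summed per animal (2 ChC against 2 Pv) and tested with edgeR 4.0.16 (quasi-likelihood test, TMM scaling, filterByExpr filter) in R 4.3.3, with Benjamini-Hochberg adjustment over all genes and a threshold of 0.05. Alternatives were DESeq2 1.42.0, no filter, no TMM scaling, batches as samples in edgeR or in limma 3.58.1 (voom, animal as random block), the row with the most UMI, cells of at least 10000 UMI, cells thinned to 5000 or 10000 UMI, and each batch or animal left out. Medians of gene lists, and the log2 fold changes of Pvalb, Syt2, Cplx1, Nefh, Atp5a1 and Atp5b, under these settings, and Gabpa without the filter, levels of list genes and shares of cells with a batch left out, were added after seeing the data. Levels, shares, intervals and correlations used numpy 2.4.6, pandas 2.3.3 and scipy 1.17.1 (Python 3.11.15). The edgeR fits over animals and over batches were tested on simulated data, and most genes simulated to change were not called there. The other fits were not tested in this way.

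Named genes are the 8 members, the genes of each list past the threshold (at most 4) or else the 2 with the most UMI, and the 3 genes most like each member. The members and lists were chosen with earlier results of these data known. Of the 95 list genes, 94 were in the table, found by symbol or older symbol. Batches follow the labels. Spike-ins and reads were not used here.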

Additional observations from a re-analysis of the deposited data

Results flagged for a closer look

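In 4 of the 32 groups of 4 batches examined for the 8 genes (level and share of cells with a UMI in each cell type), a batch lay far from the other 3, where chance gives about 1 in 20 groups of normally spread values. Over all genes tested, the same held for 20.0% of groups by level and 14.3% by share of cells, so these 4, of which 2 are Gabpa in the same batch, are no more than other genes show. Nrf1 was at 276.2 CPM in ChC batch 2, against 40.7 to 56.9 CPM in the other ChC batches. Gabpa was at 58.26 CPM in Pv batch 7, against 0 to 2.43 CPM in the other Pv batches, and 68.75% of the cells of that batch had a Gabpa UMI, against at most 6.25%. Tfam was at 349.1 CPM in Pv batch 6, against 17.04 to 52.7 CPM in the other Pv batches.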

How the results depend on the processing

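The count of 0 genes called by edgeR over animals, of which 616 had an unadjusted p below 0.05, became 80 without the filter, 151 with DESeq2, 5 in edgeR and 6 in limma voom with batches as samples, and 1 with cells thinned to 5000 UMI. With each batch or animal left out it ranged from 0 to 100, and where an animal was left out the lone animal of its type was assumed to vary like the others. The members called stayed at 0 under each setting that kept both animals of a type. With a batch left out, the members whose batches do not overlap ranged from 0 to 1, Esrra without batch 7 and Mfn2 without batch 1. Fewer batches separate more easily, and the share of all genes that do so with a batch left out is not given here. This count is thus no result about the members. Of 137 log2 fold changes of members under alternatives, 129 kept their sign and side of the threshold and 8 turned sign. Esrrg was -0.148 in limma voom, and ranged from -0.499 to 0.657 with a batch or animal left out, reaching -0.238 and -0.191 without batch 3 and without animal 3. With a batch or animal left out, Nrf1 ranged from -1.55 to 0.626, with 0.263 and 0.344 without batch 1 and without animal 2, and Ppargc1b ranged from -1.76 to 1.85. The cause was not tested, beyond the fewer samples where a batch or animal was left out. Of 64 mean levels of members with 1 batch left out, 9 moved by over 1.5 times, and of 64 under other settings, 5 did, Nrf1 in both types by the row with the most UMI, and Gabpa in both types and Tfam in ChC with thinned cells. Without the filter, Gabpa ranged from -3.27 to 2.76 with a batch or animal left out and was 1.82 without animal 4. Of 48 shares of cells under other settings, 26 fell outside the exact binomial interval of the unthinned share, all of them with thinning. Of 30 correlations, 15 moved by more than their SD over batches, all of them on UMI in place of CPM. The 6 list genes followed in the same way gave 116 values, of which 0 turned sign and 6 passed the threshold, 4 of Pvalb and 2 of Nefh. No paired analysis was possible because no animal gave cells of both types. Replicate numbers were given in accession order, and the labels carry none. Depth limits the scarce members most, since 3 UMI stood for 1.08 to 7.30 CPM in a batch.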
